A study of Mus musculus with 31 samples.

Results

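Glycolysis and hepatic glucose uptake are followed here through 8 genes: Slc2a2, Gckr, Pfkl, Pfkm, Pfkfb1, Pfkfb3, Pklr and Ldha. They were taken by name from the Ensembl gene identifiers of both count tables after the GENCODE vM21 annotation had given the symbols, and all 8 were present in each table. They are 8 of the 35275 identifiers in the table of the insulin experiment and 8 of the 54532 in the table of the ERRα3SA experiment.

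The study asked how insulin acts on the liver through the nuclear receptor ERRα, which the kinase GSK3β and the ubiquitin ligase FBXW7 mark for destruction. RNA was sequenced from 31 samples in 8 groups, all from C57BL/6N mice on a standard normal diet, which the study's methods give as male littermates 2 to 3 months old unless stated otherwise. In the insulin experiment, WT and ERRα-/- mice were fasted for 12 h, given an intraperitoneal injection of saline or insulin (1 unit per kg), and killed 4 h later for their livers. The groups held 4 WT livers with saline, 4 WT livers with insulin, 4 ERRα-/- livers with saline and 3 ERRα-/- livers with insulin. ERRα-/- mice lack the receptor in the whole body, not in the liver alone. In the ERRα3SA experiment, 4 livers and 4 muscles came from untreated WT mice, and 4 livers and 4 muscles from untreated littermates with ERRα3SA, a knock-in made by genome editing that turns 3 serines that GSK3β phosphorylates into alanine (S19A, S22A and S26A). Muscle was gastrocnemius and soleus. For the mice of the ERRα3SA experiment no fast is described. The methods give, for mice in general, free access to the diet and tissue collection between ZT 2 and ZT 6, in hours after lights on, and do not say for these mice apart whether they had food until then.

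Glycolysis turns glucose into pyruvate, and the liver runs it mainly after a meal. Glucose enters the hepatocyte through a carrier and is trapped by phosphorylation, and the pathway is then set at phosphofructokinase, through the level of fructose 2,6-bisphosphate, and at pyruvate kinase. A fasted liver makes glucose instead. Skeletal muscle carries out the same steps, with other main members in some of the enzyme families and not in all. Liver and muscle can be told apart by the isozymes that differ.

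Each library is described by its total count, from 35871419 to 48317108 for the insulin experiment and from 20481405 to 33412022 for the other. Levels are in counts per 1000000 counts of the library (CPM), with the library sizes scaled by TMM normalisation, done once for each table, and samples are named by group and replicate number. Esrra, the gene of ERRα, had 1246 to 3400 counts over the 8 WT livers of the insulin experiment, against 11 to 62 over the 7 ERRα-/- livers. The log2 difference of ERRα-/- from WT was -5.21 with saline (adjusted p = 2.58e-06) and -6.86 with insulin (adjusted p = 3.55e-05) by the quasi-likelihood test of edgeR, adjusted over all genes tested after Benjamini and Hochberg, so the livers matched their genotype labels.

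Markers of the labelled tissues were present where the labels put them. The 5 hepatocyte markers, of which Alb was the most abundant, summed to between 77880 and 111600 CPM in livers of the insulin experiment, and in muscles to between 0.192 and 1.26 CPM. The 5 muscle fibre markers, led by Myh4, summed to 104600 to 117500 CPM in WT muscles. Some libraries stood apart from their groups in these sums. ERRα3SA liver replicate 4 had a hepatocyte sum of 63020 CPM, against 91800 to 104600 CPM in the other 3 ERRα3SA livers and 91050 to 107100 CPM in the WT livers. Its Kupffer cell sum (4 markers, led by Clec4f) was 356 CPM against 264 to 314 CPM, and its neutrophil sum (4 markers, led by S100a9) 5.05 CPM against 0.245 to 1.27 CPM.

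Among muscles, ERRα3SA replicate 1 had a muscle fibre sum of 178400 CPM, a slow fibre sum (4 markers, led by Myh7) of 2752 CPM and 19.3% of its counts on the mitochondrial genome, where the WT muscles had slow fibre sums of 1518 to 1770 CPM and mitochondrial shares of 10.04 to 10.8%. Its Esrra stood at 24.3 CPM, against 94.5 to 132.7 CPM in the other 3 ERRα3SA muscles and 66.9 to 90.2 CPM in the WT muscles. ERRα3SA muscle replicate 4 had the lowest fibre sum, 79820 CPM, and the highest fibroblast sum (4 markers, led by Col3a1 in that group), 2653 CPM against 973.5 to 1477 CPM in the other 3. Its neutrophil sum was 9.59 CPM against 0.291 to 0.619 CPM in those 3, and its sum of the Kupffer cell markers, led in that group by Adgre1, 17.5 CPM against 4.16 to 4.99 CPM. In WT liver with insulin, replicate 3 carried a muscle fibre sum of 69.8 CPM, led by Acta1, against 3.21, 1.08 and 0.83 CPM in replicates 1, 2 and 4. Replicate 2 of that group had a mitochondrial share of 1.88%, against 3.88 to 4.17% in the others. In WT liver with saline, replicate 2 had a Kupffer cell sum of 262.6 CPM against 131 to 180.1 CPM in the other 3, a red cell sum (4 markers) of 250.6 CPM against 107 to 168 CPM and a neutrophil sum of 2.89 CPM against 0.44 to 0.878 CPM. In ERRα-/- liver with insulin, replicate 2 had a red cell sum of 217.4 CPM against 129.6 and 102 CPM in replicates 1 and 4. What these differences contribute to the values of single genes was not tested, and many of the values below are given with and without a library that stood apart. Fewer cells of a type and less RNA per cell cannot be told apart in such bulk samples.

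Compared per kb of exon, the 8 genes spanned a wide range of levels in fasted liver. In WT livers with saline the mean level was 456.6 CPM per kb for Ldha, 40.8 for Slc2a2, 16.1 for Pklr and 12.8 for Gckr. Next came Pfkfb1 at 7.08 CPM per kb (SD 2.16, 4 livers), Pfkm at 5.07 (SD 0.73), Pfkl at 4.57 (SD 0.581) and Pfkfb3 at 3.04 (SD 1.43). The ranges of Pklr and Gckr, of Pfkfb1 and Pfkm, of Pfkm and Pfkl, and of Pfkl and Pfkfb3 over the livers overlapped, so the order of these neighbours is not settled. In WT muscle the order was Pfkm at 1053 CPM per kb, Ldha at 749.6, Pfkfb3 at 70.4, Pfkfb1 at 10.9 and Pfkl at 1.26, while Slc2a2, Gckr and Pklr had 4 counts or fewer in each muscle.

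**Figure D1:**
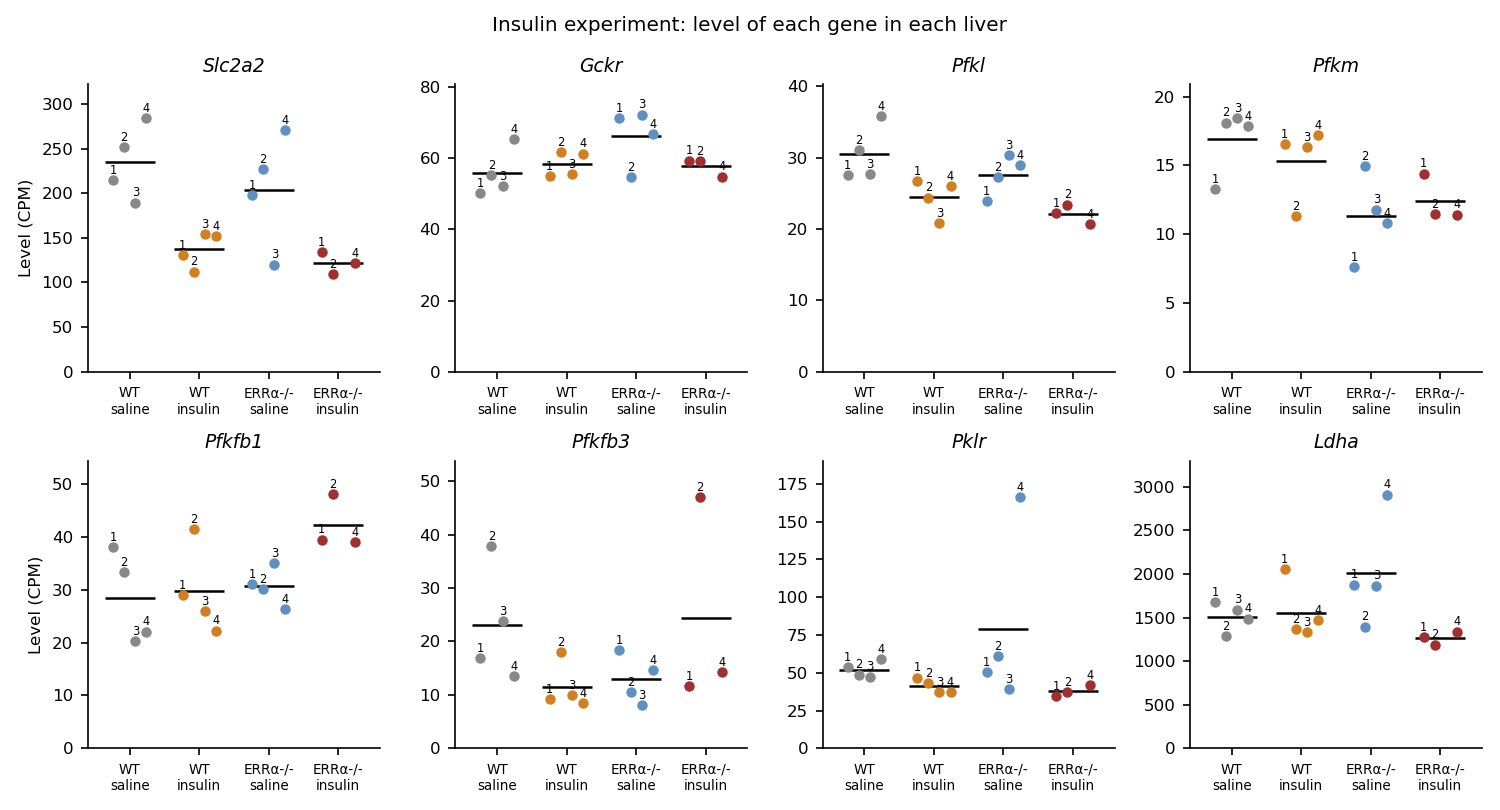
Each panel shows 1 gene in the 15 livers of the insulin experiment, with the level in CPM on a linear axis from 0, 1 point per liver labelled by replicate number and a black bar at the group mean. Slc2a2 is lower with insulin in WT livers without overlap, and ERRα-/- saline replicate 4 stands high for Pklr at 166 CPM.

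Slc2a2 (ENSMUSG00000027690, GRCm38 chr3:28697903-28731359, plus strand) encodes GLUT2, the carrier through which glucose passes in and out of hepatocytes. RefSeq (GRCm38.p6) holds promoter entries for 8 of 8 genes, 17 entries in all, and the 250 bases before each start site were searched on both strands for AAGGTCA, the core of the element that ERR receptors bind, for CACGTG, and for ACGTG, which every CACGTG contains on both strands. AAGGTCA occurred in 4.08% of all 32851 promoters of this length, CACGTG in 6.02% and ACGTG in 16.6%. The Slc2a2 promoter, chr3:28697653-28697902 on the plus strand, is shown because Slc2a2 passed the adjusted threshold with insulin and the study altered ERRα. Capitals mark AAGGTCA, which begins 22 bases before the start site, and the match is a description of the letters, not evidence of binding.
Slc2a2: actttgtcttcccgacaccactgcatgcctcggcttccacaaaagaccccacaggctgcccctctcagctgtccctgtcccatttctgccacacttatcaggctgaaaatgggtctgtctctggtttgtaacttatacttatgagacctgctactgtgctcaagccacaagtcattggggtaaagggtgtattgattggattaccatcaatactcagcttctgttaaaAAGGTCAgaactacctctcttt

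In WT livers with saline, Slc2a2 stood at 214, 252, 189.5 and 284 CPM in replicates 1 to 4. With insulin the WT livers had 130.5, 112, 154 and 152 CPM. Every WT liver with insulin was lower than every WT liver with saline. Slc2a2 fell by 0.78 on the log2 scale (SE 0.156, adjusted p = 0.0232 by the same edgeR test), and it was the only 1 of the 8 genes past the adjusted threshold in that comparison. That call rested on single libraries. Without WT saline replicate 1 the adjusted p was 0.0563, without replicate 2 0.0606 and without replicate 4 0.0861. Without WT insulin replicate 1 it was 0.0529 and without replicate 4 0.057, and over all settings tried it ranged from 0.00016 to 0.0861. The log2 difference itself lay between -0.87 and -0.67 whichever library was left out.

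In ERRα-/- livers, Slc2a2 had 198, 227, 119.9 and 270.5 CPM with saline and 134, 109 and 121 CPM in replicates 1, 2 and 4 with insulin. The groups overlapped, since saline replicate 3 was lower than insulin replicates 1 and 4, and the other 3 saline livers were above all 3 insulin livers. The log2 difference was -0.75 (SE 0.225, unadjusted p = 0.00711, adjusted p = 0.108), which passed the criteria used here for a differentially expressed gene (DEG), namely an up or down change of 1.2-fold or more together with an unadjusted p under 0.05. The study set these limits on p-values of DESeq2, and here they are applied to those of edgeR, with the calls that DESeq2 changes named beside them. Without saline replicate 3 it was -0.93 with an adjusted p of 0.00679, within a range of 0.00679 to 0.355 over all settings. The insulin effect in WT minus that in ERRα-/- was -0.03 on the log2 scale (95% interval -0.64 to 0.58, unadjusted p = 0.917). Between genotypes the log2 difference was -0.20 with saline (unadjusted p = 0.369) and -0.18 with insulin (unadjusted p = 0.237), where neither passed the criteria.

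In the ERRα3SA experiment, Slc2a2 stood at 395, 428, 366 and 343 CPM in WT livers and at 402, 425, 467 and 163 CPM in ERRα3SA livers. Replicate 4, the liver with the low hepatocyte sum, was far below the other 3, which overlapped the WT livers. The log2 difference was -0.07 (unadjusted p = 0.797), and without that liver it was 0.17 (unadjusted p = 0.0747). Slc2a2 had 0 counts in all 4 WT muscles and 0, 1, 0 and 4 counts in ERRα3SA muscles. Against a floor of 3 counts per library (0.105 to 0.119 CPM), which covers counting error only, WT liver was at least 3231-fold higher than WT muscle. Among 6 carrier genes of the family (Slc2a1, Slc2a2, Slc2a3, Slc2a4, Slc2a5 and Slc2a9), Slc2a2 made up 68.1 to 82.6% of the summed CPM per kb in the mean of each liver group, and Slc2a4 95.8% in WT muscle. Over the 15 livers of the insulin experiment, the genes whose log2 CPM was most like that of Slc2a2 among 12981 compared were Sept9 (Pearson r = 0.903, Spearman rho = 0.889) and Slc12a7 (r = 0.899, rho = 0.846). These values and the like values below describe 15 livers in which differences between groups and between libraries enter both genes of a pair.

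Gckr (ENSMUSG00000059434, chr5:31297443-31327314, plus strand) encodes the regulatory protein that holds the liver's glucose-phosphorylating enzyme in the nucleus when glucose is low. It had 50.05, 55.2, 52.1 and 65.2 CPM in WT livers with saline and 54.96, 61.7, 55.4 and 61.2 CPM with insulin. The insulin livers lay inside the range of the saline livers, and the log2 difference was 0.07 (95% interval -0.19 to 0.33, unadjusted p = 0.583). ERRα-/- livers had 71.2, 54.7, 72.2 and 66.7 CPM with saline and 59.2, 58.99 and 54.8 CPM with insulin. All 3 insulin livers were below saline replicates 1, 3 and 4, and saline replicate 2 was the lowest of the 7. The log2 difference was -0.20 (unadjusted p = 0.107), and without saline replicate 2 it was -0.28 (unadjusted p = 0.0207), past the DEG criteria. Gckr differed between genotypes by 0.25 with saline (unadjusted p = 0.0652), which became 0.33 without ERRα-/- saline replicate 2 (unadjusted p = 0.0187) and 0.33 without WT saline replicate 4 (unadjusted p = 0.0198), and by -0.03 with insulin (unadjusted p = 0.821). The difference between the insulin effects was 0.27 (unadjusted p = 0.122), and 0.35 without either of these livers (unadjusted p = 0.0397 and 0.0406).

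In the ERRα3SA experiment Gckr stood at 199.9, 193, 193 and 196 CPM in WT livers and 167, 190.3, 189.5 and 108 CPM in ERRα3SA livers. Every ERRα3SA liver was below every WT liver, with replicate 4 the lowest by a wide margin. Gckr differed by -0.25 (SE 0.155, unadjusted p = 0.133), and without replicate 4 it was -0.10 (unadjusted p = 0.142). Muscles had 0, 0, 0 and 4 counts in WT and 0, 0, 0 and 1 counts in ERRα3SA. The level in WT liver was 195 CPM on average, and since all 4 counts in WT muscle came from replicate 4 (0.153 CPM), no fold between the tissues is given. The genes most like Gckr over the 15 livers were Cyp2b9 (r = 0.839, rho = 0.824) and Cr1l (r = 0.833, rho = 0.779).

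Pfkl (ENSMUSG00000020277, chr10:77986947-78010083, minus strand) and Pfkm (ENSMUSG00000033065, chr15:98092589-98132451, plus strand) encode the liver and muscle subunits of phosphofructokinase, the enzyme of the committing step of glycolysis. In WT livers Pfkl had 27.6, 31.03, 27.7 and 35.8 CPM with saline and 26.7, 24.4, 20.9 and 25.96 CPM with insulin. In ERRα-/- livers it had 23.9, 27.2, 30.3 and 28.9 CPM with saline and 22.2, 23.4 and 20.7 CPM with insulin. In each genotype every liver with insulin was below every liver with saline. The log2 difference was -0.32 in WT (SE 0.133, unadjusted p = 0.0353, adjusted p = 0.244) and -0.32 in ERRα-/- (SE 0.118, unadjusted p = 0.0196, adjusted p = 0.178), and the insulin effect in WT minus that in ERRα-/- was 0.00 (95% interval -0.38 to 0.38, unadjusted p = 0.999).

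Both effects of insulin on Pfkl passed the DEG criteria, and both rested on single livers. The effect in WT was -0.31 without saline replicate 2 (unadjusted p = 0.0645), -0.23 without saline replicate 4 (unadjusted p = 0.134) and -0.25 without insulin replicate 3 (unadjusted p = 0.0988). The effect in ERRα-/- was -0.27 without saline replicate 3 (unadjusted p = 0.0505) and -0.27 without insulin replicate 4 (unadjusted p = 0.0846), and with the replicate number as a block it was -0.27 as well (unadjusted p = 0.0734). Between genotypes Pfkl differed by -0.15 with saline (unadjusted p = 0.248) and by -0.16 with insulin (unadjusted p = 0.279). The genes most like it over the 15 livers were Steap3 (r = 0.858, rho = 0.893) and Pik3r2 (r = 0.855, rho = 0.914).

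Pfkm had 13.3, 18.1, 18.4 and 17.8 CPM in WT livers with saline and 7.58, 14.96, 11.8 and 10.8 CPM in ERRα-/- livers with saline. ERRα-/- replicate 2 lay inside the WT range and the other 3 lay below it. WT replicate 1 was the lowest WT liver. Pfkm fell by 0.58 on the log2 scale in ERRα-/- (SE 0.193, unadjusted p = 0.0115, adjusted p = 0.265), which met the DEG criteria in the full set of livers and with any 1 liver left out, with differences from -0.75 to -0.43. With insulin, WT livers had 16.6, 11.3, 16.3 and 17.2 CPM and ERRα-/- livers 14.4, 11.4 and 11.4 CPM. WT replicate 2, the liver with the low mitochondrial share, was the lowest of these 7 livers. The log2 difference was -0.32 (unadjusted p = 0.114), and without that WT liver it was -0.43 (unadjusted p = 0.0155), past the criteria. WT insulin replicate 3, the liver with muscle fibre markers, was within the range of its group, and what those markers' source adds to its Pfkm was not tested. Insulin changed Pfkm by -0.14 in WT (unadjusted p = 0.426) and by 0.13 in ERRα-/- (unadjusted p = 0.54), with a difference between these effects of -0.28 (unadjusted p = 0.336). Pfkm shares 341 bp (10.2% of its exons) with Gm26513 on the same strand, which had a median of 0 counts in the insulin table and 1.5 in the other, and 18 bp with Senp1 on the other strand. The genes most like Pfkm were Phf20 (r = 0.908, rho = 0.889) and Tarsl2 (r = 0.881, rho = 0.814).

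Per kb, the liver held Pfkl and Pfkm at like levels, and muscle held Pfkm. Of the summed CPM per kb of Pfkl, Pfkm and Pfkp, Pfkl made up 43.6 to 54.0% and Pfkm 44.2 to 54.8% over the means of the 6 liver groups, and Pfkm made up 99.8% in WT muscle. Pfkm stood at 18.2, 19.2, 20.2 and 17.9 CPM in WT livers and 3480, 3403, 3520 and 3663 CPM in WT muscles, a log2 difference of 7.57 (SE 0.109, adjusted p = 3.86e-16). Pfkl stood at 44.1, 44.7, 41.5 and 42.02 CPM in WT livers and 8.19, 7.66, 9.05 and 8.63 CPM in WT muscles. All 4 muscles were below all 4 livers for Pfkl and above them for Pfkm, and the log2 difference of Pfkl was -2.33 (SE 0.0745, adjusted p = 9.48e-13).

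With ERRα3SA, livers had 43.3, 44.9, 41.4 and 33.6 CPM of Pfkl and 18.2, 17.1, 16.6 and 16.9 CPM of Pfkm. Replicate 4 was the lowest for Pfkl, and the Pfkm values ran from 16.6 to 18.2 CPM, overlapping WT. The log2 differences from WT were -0.08 for Pfkl (unadjusted p = 0.407) and -0.13 for Pfkm (unadjusted p = 0.0996), and without replicate 4 they were 0.0048 (unadjusted p = 0.936) and -0.12 (unadjusted p = 0.15). ERRα3SA muscles had 5.62, 9.68, 9.09 and 9.52 CPM of Pfkl and 3022, 3823, 3888 and 3144 CPM of Pfkm. Replicate 1, the muscle with the high mitochondrial share, was the lowest for both. The log2 differences were 0.05 for Pfkl (unadjusted p = 0.796) and 0.01 for Pfkm (unadjusted p = 0.958), and without replicate 1 they were 0.21 (unadjusted p = 0.0663) and 0.08 (unadjusted p = 0.398). Without replicate 4, the muscle with the low fibre sum, they were -0.02 (unadjusted p = 0.935) and 0.05 (unadjusted p = 0.719).

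Pfkfb1 (ENSMUSG00000025271, chrX:150588229-150643878, plus strand) and Pfkfb3 (ENSMUSG00000026773, chr2:11471433-11554077, minus strand) encode bifunctional enzymes that make and break down fructose 2,6-bisphosphate, the activator of phosphofructokinase. PFKFB1 is the form known from liver and muscle, and PFKFB3 is an inducible form whose kinase activity far exceeds its phosphatase activity. The sequence before the inner of the annotated Pfkfb3 starts is shown because Pfkfb3 had the widest difference in its response to insulin between the genotypes. It covers bases 250 to 12 before the start, chr2:11502102-11502340 on the minus strand in GRCm38.p6, and capitals mark CACGTG, 53 bases before the start. Of the 17 promoter entries, 3 held CACGTG (in Pfkfb3, Ldha and Pfkm), 5 held ACGTG and 2 held AAGGTCA (in Slc2a2 and Pfkfb1).
Pfkfb3: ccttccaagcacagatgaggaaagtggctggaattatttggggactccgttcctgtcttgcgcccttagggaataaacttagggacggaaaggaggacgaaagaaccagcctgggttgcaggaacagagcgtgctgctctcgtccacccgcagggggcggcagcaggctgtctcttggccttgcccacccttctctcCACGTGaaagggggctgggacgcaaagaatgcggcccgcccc

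Pfkfb1 had 38.1, 33.4, 20.3 and 22.1 CPM in WT livers with saline and 28.9, 41.5, 25.96 and 22.2 CPM with insulin. The ranges overlapped over most of their width, with a log2 difference of 0.06 (unadjusted p = 0.802). ERRα-/- livers had 30.99, 30.2, 35.1 and 26.3 CPM with saline and 39.5, 48.02 and 39.1 CPM with insulin. All 3 livers with insulin were above all 4 with saline. Pfkfb1 rose by 0.46 on the log2 scale (SE 0.128, unadjusted p = 0.00462, adjusted p = 0.0881), a DEG in the full set and with any 1 liver left out, but not with 4 groups in the fit (0.46, unadjusted p = 0.0513), and without saline replicate 3 the adjusted p was 0.0445 (range 0.0347 to 0.356 over all settings). The insulin effect in WT minus that in ERRα-/- was -0.40 (95% interval -1.04 to 0.24, unadjusted p = 0.201). It was -0.61 without WT insulin replicate 2, the liver with the low mitochondrial share (unadjusted p = 0.0414).

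Between genotypes, Pfkfb1 differed by 0.11 with saline (unadjusted p = 0.59) and was higher in ERRα-/- with insulin by 0.50 (SE 0.203, unadjusted p = 0.0337, adjusted p = 0.443). WT insulin replicate 2, at 41.5 CPM, overlapped the ERRα-/- livers, and the other 3 WT livers were below them. The last difference met the DEG criteria only with all livers, or without WT insulin replicate 2 or ERRα-/- insulin replicate 4. It was 0.55 without ERRα-/- insulin replicate 1 (unadjusted p = 0.0511) and 0.40 without its replicate 2 (unadjusted p = 0.128). Without WT insulin replicates 1, 3 or 4 in turn it was 0.48, 0.44 and 0.38 (unadjusted p = 0.0589, 0.0734 and 0.088). Pfkfb1 shares 123 bp (3.06% of its exons) with Apex2 on the other strand, and the library kit does not mark the strand. The genes most like it were Fxr1 (r = 0.901, rho = 0.864) and Acmsd (r = 0.862, rho = 0.864).

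Pfkfb3 had 16.9, 37.9, 23.9 and 13.4 CPM in WT livers with saline and 9.22, 18.01, 9.97 and 8.44 CPM with insulin. Replicate 2 was the highest of each group, and only this insulin liver and saline replicates 1 and 4 lay in the range that the groups shared. Pfkfb3 fell by 1.01 on the log2 scale (SE 0.33, unadjusted p = 0.0105, adjusted p = 0.14), a DEG with any 1 liver left out, from -1.32 without insulin replicate 2 to -0.66 without saline replicate 2, the liver with the high Kupffer cell, red cell and neutrophil sums. The adjusted p was under the threshold with DESeq2 (0.0282) and with the replicate number as a block (0.0153), in a range of 0.0153 to 0.311 over all settings. In ERRα-/- livers it had 18.4, 10.6, 8.09 and 14.6 CPM with saline and 11.7, 46.95 and 14.3 CPM with insulin. Insulin replicate 2 stood far above the other 6 ERRα-/- livers, and insulin replicates 1 and 4 lay within the saline range. The red cell sum of insulin replicate 2 was 217.4 CPM, against 92.98 to 138.4 CPM in the other 6 ERRα-/- livers. What that difference adds to Pfkfb3 was not tested. Insulin moved Pfkfb3 there by 0.91 (95% interval -0.05 to 1.87, unadjusted p = 0.0609) and 0.01 without insulin replicate 2 (unadjusted p = 0.968). It was past the criteria without saline replicate 1 (1.13, unadjusted p = 0.0359), insulin replicate 1 (1.25, unadjusted p = 0.0142) or insulin replicate 4 (1.19, unadjusted p = 0.0289), or without the filter on low counts (0.91, unadjusted p = 0.0158).

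The difference between these insulin effects, WT minus ERRα-/-, was -1.93 for Pfkfb3 (SE 0.606, unadjusted p = 0.00546, adjusted p = 0.445). Without ERRα-/- insulin replicate 2 it was -1.03 (unadjusted p = 0.0572) and no longer met the criteria, and over all livers left out in turn it lay between -2.26 and -1.03. Pfkfb3 was lower in ERRα-/- with saline by -0.84 (SE 0.322, unadjusted p = 0.0247, adjusted p = 0.325) and higher in ERRα-/- with insulin by 1.08 (SE 0.449, unadjusted p = 0.0359, adjusted p = 0.456). The saline difference was -0.75 without ERRα-/- replicate 2 (unadjusted p = 0.062), -0.67 without ERRα-/- replicate 3 (unadjusted p = 0.0647) and -0.49 without WT replicate 2 (unadjusted p = 0.107), none of them a DEG. Nor was it one with 4 groups in the fit (-0.84, unadjusted p = 0.0595) or with the block (-0.79, unadjusted p = 0.0522). The difference with insulin was 0.18 without ERRα-/- replicate 2 (unadjusted p = 0.577), and with DESeq2 it was 1.09 and not a DEG (unadjusted p = 0.0722). Without WT insulin replicates 1, 3 or 4 in turn it was 0.99, 1.02 and 0.96 (unadjusted p = 0.0782, 0.0709 and 0.0834). The genes most like Pfkfb3 over the livers were Ap1b1 (r = 0.798, rho = 0.625) and Vars (r = 0.771, rho = 0.725).

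The make-up of the bifunctional family also differed between liver and muscle. Of the summed CPM per kb of Pfkfb1, Pfkfb2, Pfkfb3 and Pfkfb4, Pfkfb1 made up 57.7 to 66.6% over the means of the groups of the insulin experiment and 81.7% in WT livers of the ERRα3SA experiment (83.1% in ERRα3SA livers). Pfkfb3 made up 24.8% with saline and 13.5% with insulin in WT, 14.9% and 20.3% in ERRα-/-, and 76.9% in WT muscle. The 20.3% rested on insulin replicate 2, and without that liver it was 12.6%. With each liver left out in turn, a step chosen after seeing the data, the share was 21.4 to 28.3% in WT with saline, 12.2 to 14.3% in WT with insulin and 13.2 to 17.04% in ERRα-/- with saline. Pfkfb3 stood at 5.20, 7.17, 4.54 and 3.66 CPM in WT livers and 592, 393, 592 and 550.5 CPM in WT muscles, a log2 difference of 6.72 (SE 0.199, adjusted p = 4.08e-13). Pfkfb1 stood at 36.4, 36.4, 28.8 and 31.9 CPM in WT livers and 41.2, 45.4, 44.3 and 43.6 CPM in WT muscles. Every muscle was above every liver for both genes, although for Pfkfb1 the log2 difference was 0.42 (SE 0.0831, adjusted p = 0.000322).

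ERRα3SA livers had 33.4, 38.4, 58.3 and 32.6 CPM of Pfkfb1 and 3.998, 4.39, 4.46 and 12.6 CPM of Pfkfb3. Replicate 3 was the highest for Pfkfb1, and replicate 4, with the low hepatocyte sum, the highest for Pfkfb3. The log2 differences were 0.29 for Pfkfb1 (unadjusted p = 0.134) and 0.31 for Pfkfb3 (unadjusted p = 0.44), and without replicate 4 they were 0.38 (unadjusted p = 0.0509) and -0.27 (unadjusted p = 0.233). Without replicate 3 the difference of Pfkfb1 was 0.06 (unadjusted p = 0.555). ERRα3SA muscles had 41.3, 46.1, 41.2 and 32.5 CPM of Pfkfb1 and 269.8, 614, 622 and 221 CPM of Pfkfb3. For Pfkfb3, replicates 1 and 4 lay below all WT muscles and replicates 2 and 3 above them. The log2 differences were -0.09 for Pfkfb1 (unadjusted p = 0.466) and -0.28 for Pfkfb3 (unadjusted p = 0.419). Without replicate 1 they were -0.09 (unadjusted p = 0.367) and -0.11 (unadjusted p = 0.73), and without replicate 4 -0.0031 (unadjusted p = 0.9754) and -0.06 (unadjusted p = 0.83).

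Pklr (ENSMUSG00000041237, chr3:89136142-89146784, plus strand) encodes the pyruvate kinase of liver and red cells, which makes pyruvate in the last step of glycolysis. Its exons share 711 bp (21.97%) with Hcn3 on the other strand, whose median count was 80 in the insulin table against 1772 for Pklr, and the strand setting of the counting is not stated. In WT livers Pklr had 53.7, 48.7, 47.4 and 58.9 CPM with saline and 46.8, 43.3, 37.3 and 37.4 CPM with insulin. Every liver with insulin was below every liver with saline. Pklr fell by 0.34 on the log2 scale (SE 0.126, unadjusted p = 0.0207, adjusted p = 0.193), which met the DEG criteria. It did not without saline replicate 4 (-0.28, unadjusted p = 0.0671), insulin replicate 3 (-0.29, unadjusted p = 0.0553) or insulin replicate 4 (-0.30, unadjusted p = 0.0628), nor with 4 groups in the fit (-0.34, unadjusted p = 0.286).

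In ERRα-/- livers Pklr had 50.3, 60.9, 39.2 and 166 CPM with saline and 34.3, 37.3 and 41.8 CPM with insulin. Saline replicate 4 stood far above the other 6 livers, and saline replicate 3 lay within the insulin range. With insulin Pklr differed by -1.07 (SE 0.415, unadjusted p = 0.0267, adjusted p = 0.207) and -0.41 without saline replicate 4 (unadjusted p = 0.0297), a DEG both times by edgeR. With DESeq2 it was -1.06 over all livers and not a DEG (unadjusted p = 0.0566). Without insulin replicates 1, 2 or 4 in turn it was -1.0, -1.06 and -1.14 (unadjusted p = 0.0762, 0.0712 and 0.0506), past the fold but not the p of the criteria. The difference between the insulin effects was 0.73 (unadjusted p = 0.131), 0.07 without ERRα-/- saline replicate 4 (unadjusted p = 0.753) and 0.95 without ERRα-/- saline replicate 3 (unadjusted p = 0.0323). Between genotypes Pklr differed by 0.60 with saline (unadjusted p = 0.131), by -0.06 without ERRα-/- saline replicate 4 (unadjusted p = 0.72) and by 0.83 without ERRα-/- saline replicate 3 (unadjusted p = 0.0328), and by -0.13 with insulin (unadjusted p = 0.352).

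Pklr stood at 363, 314, 190.5 and 367 CPM in WT livers and 281, 372, 458 and 75.6 CPM in ERRα3SA livers of the ERRα3SA experiment. Replicate 4 was the lowest of the 8, and the log2 difference was -0.05 (unadjusted p = 0.903) with it and 0.27 without it (unadjusted p = 0.257). All 8 muscles had 0 counts of Pklr, so that WT liver was at least 2604-fold higher than WT muscle at the floor of 3 counts per library. Of the summed CPM per kb of Pklr and Pkm, Pklr made up 82.1 to 96.7% in the liver groups and 0% in muscle. The gene most like Pklr over the 15 livers, of those reported, was Pqlc1 (r = 0.859, rho = 0.832).

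Ldha (ENSMUSG00000063229, chr7:46841475-46855627, plus strand) encodes the A subunit of lactate dehydrogenase, the main subunit in liver and fast muscle, which turns pyruvate into lactate and back. The genome holds processed copies of Ldha, and how the counting treated reads that match them is not known. Its promoter, chr7:46845554-46845803 on the plus strand of GRCm38.p6, is shown because it held the most matches of the 17 entries. Capitals mark CACGTG, 145 and 48 bases before the start, and ACGTG on the other strand, 34 bases before it.
Ldha: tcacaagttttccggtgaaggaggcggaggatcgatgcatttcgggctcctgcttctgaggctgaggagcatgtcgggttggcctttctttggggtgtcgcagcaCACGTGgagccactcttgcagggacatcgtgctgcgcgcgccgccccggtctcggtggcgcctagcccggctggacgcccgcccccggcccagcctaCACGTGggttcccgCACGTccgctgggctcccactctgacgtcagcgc

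In WT livers Ldha had 1679, 1289, 1590 and 1487 CPM with saline and 2053, 1368, 1333 and 1472 CPM with insulin. The groups overlapped, with insulin replicate 1 above all saline livers, and the log2 difference was 0.04 (unadjusted p = 0.8). ERRα-/- livers had 1879, 1396, 1867 and 2911 CPM with saline and 1272, 1190 and 1338 CPM with insulin. All 3 livers with insulin were below all 4 with saline, of which replicate 4 was the highest, as it was for Pklr. Ldha fell by 0.67 on the log2 scale in ERRα-/- (SE 0.213, unadjusted p = 0.00958, adjusted p = 0.123), a DEG with any 1 liver left out, and it was -0.44 without saline replicate 4 (unadjusted p = 0.0132). Without saline replicate 2 the adjusted p was 0.0492, in a range of 0.0175 to 0.369 over all settings.

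The insulin effect on Ldha in WT minus that in ERRα-/- was 0.71 (SE 0.281, unadjusted p = 0.0216, adjusted p = 0.519), a DEG by the criteria. It was 0.48 without ERRα-/- saline replicate 4 (unadjusted p = 0.0558) and 0.55 without WT insulin replicate 1 (unadjusted p = 0.0555), and then it did not meet them. Between genotypes Ldha differed by 0.41 with saline (unadjusted p = 0.0629, and a DEG with DESeq2, without the filter and with 4 groups in the fit, at unadjusted p-values of 0.031, 0.0382 and 0.0442), by 0.55 without ERRα-/- replicate 2 (unadjusted p = 0.0112) and by 0.18 without ERRα-/- replicate 4 (unadjusted p = 0.251), and by -0.31 with insulin (unadjusted p = 0.0962). The genes most like Ldha were F11r (r = 0.874, rho = 0.846) and Copz1 (r = 0.873, rho = 0.861).

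Ldha stood at 855, 788, 654 and 880 CPM in WT livers and 855, 876, 896 and 1143 CPM in ERRα3SA livers. Replicate 4 was the highest of the ERRα3SA livers, and the log2 difference was 0.25 (unadjusted p = 0.0878) with it and 0.14 without it (unadjusted p = 0.181). WT muscles had 2360, 2578, 2485 and 2501 CPM, all above the WT livers, with a log2 difference of 1.68 (SE 0.104, adjusted p = 1.80e-09). ERRα3SA muscles had 1800, 2791, 2824 and 2517 CPM. Replicate 1 was below the WT muscles and replicates 2 and 3 above them, with a log2 difference of 0.03 (unadjusted p = 0.861), or 0.16 without replicate 1 (unadjusted p = 0.0526) and 0.02 without replicate 4 (unadjusted p = 0.928). Of the summed CPM per kb of Ldha and Ldhb, Ldha made up 99.4 to 99.9% in the liver groups and 81.6% in WT muscle.

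**Figure D2:**
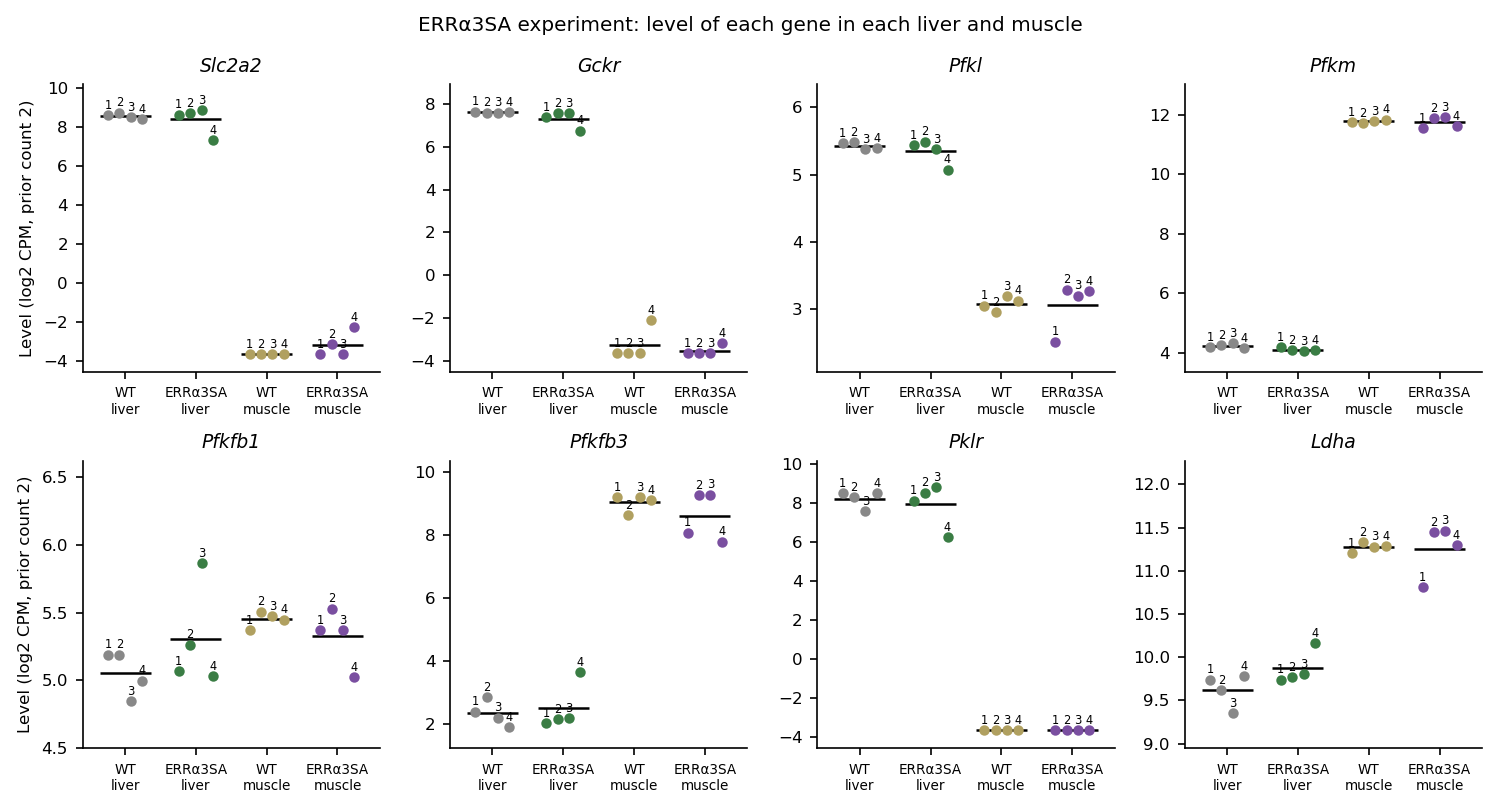
Each panel shows 1 gene in the 16 samples of the ERRα3SA experiment as log2 CPM with a prior count of 2, 1 point per sample labelled by replicate number, with axes that differ between panels and samples of 0 counts at the value that the prior count gives. Slc2a2, Gckr and Pklr are near 0 counts in muscle, and ERRα3SA liver replicate 4 is the lowest liver for Slc2a2, Gckr, Pfkl and Pklr.

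Counted over the comparisons, insulin in WT livers made 4 of the 8 genes DEGs, all lower (Slc2a2, Pfkl, Pfkfb3 and Pklr), where 17.2% of 13463 genes tested were DEGs. By adjusted p it was 1 of 8, against 3.16% of all genes, and with DESeq2 it was 2 of 8 (Slc2a2 and Pfkfb3), against 6.95% of all genes. The median log2 difference of the 8 was -0.23, and that of all genes 0.00. In ERRα-/- livers insulin made 5 of the 8 DEGs, 4 lower (Slc2a2, Pfkl, Pklr and Ldha) and 1 higher (Pfkfb1), against 17.2% of 13684 genes. By edgeR 0 of the 8 passed the adjusted threshold, against 2.91% of all genes, with 5 at an unadjusted p under 0.05 and 3 past the adjusted threshold by DESeq2 (Slc2a2, Pfkfb1 and Ldha), which called 7.22% of all genes. The median of the 8 was -0.26, beside -0.02 for all genes.

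Loss of ERRα made 2 of the 8 genes DEGs with saline, both lower (Pfkm and Pfkfb3), against 11.3% of 13481 genes. With insulin it made 2 of the 8 DEGs, both higher (Pfkfb1 and Pfkfb3), against 9.99% of 13665 genes. By adjusted p it was 0 of 8 both times with edgeR, against 0.0816% of all genes with saline and 0.0585% with insulin, with 2 at an unadjusted p under 0.05 both times. With DESeq2 it was also 0 of 8, against 1.84% and 1.76% of all genes. The medians of the 8 were -0.02 with saline and -0.14 with insulin, beside 0.00 and -0.02 for all genes. Each of these 4 comparisons shares livers with another, so their values for a gene are given side by side and not counted as separate evidence. The difference between the insulin effects made 2 of the 8 genes DEGs, Pfkfb3 with a negative and Ldha with a positive value, against 8.79% of 14670 genes. By adjusted p it was 0 of 8 with edgeR, against 0% of all genes, with 2 at an unadjusted p under 0.05 and 0 past the adjusted threshold by DESeq2, against 0.136% of all genes.

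**Figure D3:**
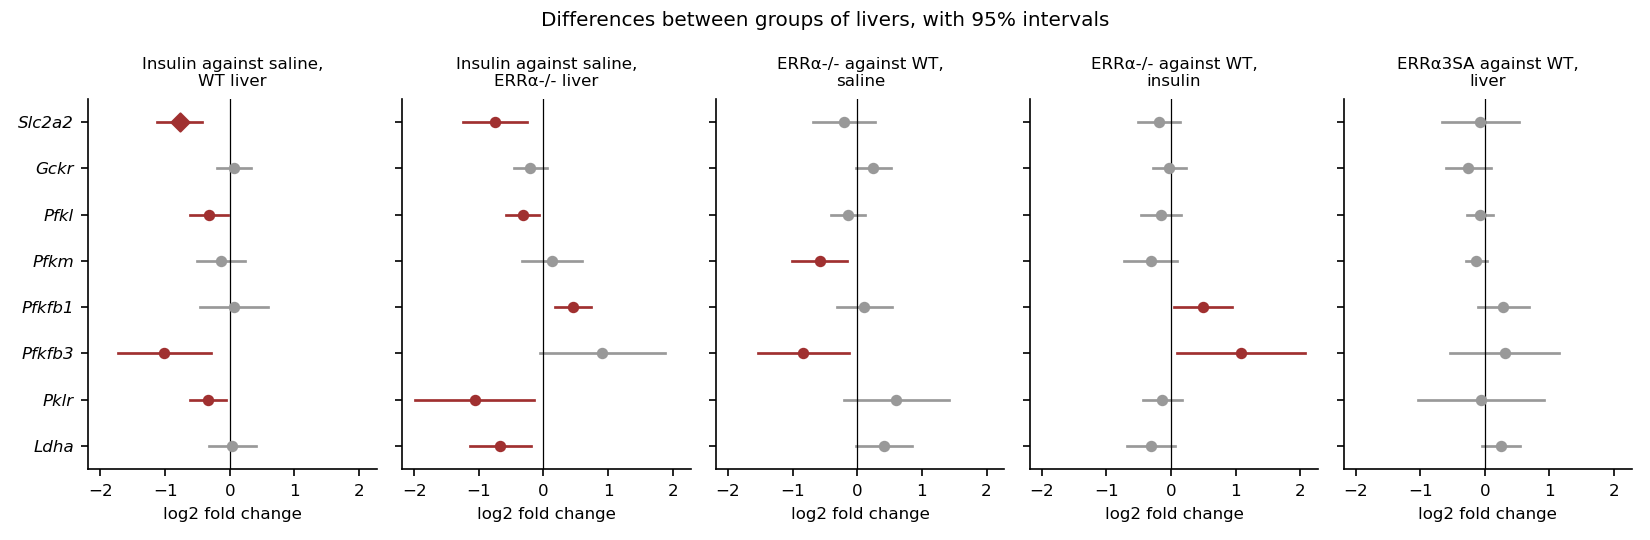
Log2 differences of the 8 genes with 95% intervals in 5 comparisons of livers, with DEGs by edgeR in red and adjusted calls as diamonds. Slc2a2 with insulin in WT, at -0.78, is the only adjusted call drawn.

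With ERRα3SA in liver 0 of the 8 genes were DEGs, against 4.88% of 13339 genes, and 0 of 8 passed by adjusted p, against 0% of all genes. With edgeR 0 of the 8 were at an unadjusted p under 0.05 in that comparison, and DESeq2 gave 0 by either rule, against 4.95% of all genes as DEGs and 0.315% by adjusted p. In muscle 5 of the 8 genes had enough counts to be tested, and 0 of these 5 were DEGs, against 4.54% of 14081 genes, with 0 at an unadjusted p under 0.05, 0 by adjusted p, against 0% of all genes, and 0 by DESeq2 under either rule, against 5.22% and 0.398% of all genes. Over all genes the muscle comparison depended on ERRα3SA muscle replicate 1: without it 464 of 14363 genes passed the adjusted threshold and 2506 were DEGs, and 0 of the 8 genes were among them. The ERRα3SA effect in muscle minus that in liver made 0 of the 8 DEGs with edgeR, against 5.57% of 15688 genes, with 0 by adjusted p, against 0% of all genes, 0 at an unadjusted p under 0.05 and 1 DEG by DESeq2, against 6.30% of all genes. Slc2a2, Gckr and Pklr passed the filter through their liver counts and had 0 to 4 counts in each muscle. For them the lack of a call says nothing about the effect (SE 325.9 for Pklr), and the count can be read for the other 5 only. Over all genes this comparison also depended on ERRα3SA muscle replicate 1, without which 369 of 16019 genes passed the adjusted threshold and 2766 were DEGs, with 0 of the 8 among them. The DEG by DESeq2 was Slc2a2, which was also a DEG without ERRα3SA liver replicate 4, and it rested on muscle counts of 1 and 4. For the genes with counts in both tissues the difference was 0.10 for Pfkl, 0.11 for Pfkm, -0.40 for Pfkfb1, -0.60 for Pfkfb3 and -0.25 for Ldha, with unadjusted p-values from 0.0985 to 0.616.

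Between WT muscle and WT liver all 8 genes were DEGs and all 8 passed by adjusted p, 4 higher in muscle and 4 lower, where 84.2% of 14886 genes were DEGs and 86.5% passed by adjusted p. That share of all genes is so high that the count says little about these 8, and the sizes of the differences carry the comparison. The livers of the insulin and ERRα3SA experiments were counted and normalised in separate tables, and a fast is described for the first alone, so they were not compared by a test. Side by side, the mean in WT livers with saline and in WT livers of the ERRα3SA experiment was 52.2 and 308.6 CPM for Pklr, 55.7 and 195 CPM for Gckr and 235 and 383 CPM for Slc2a2. For Pfkl it was 30.5 and 43.1 CPM, for Pfkm 16.9 and 18.9 CPM and for Pfkfb1 28.45 and 33.4 CPM. Ldha, with 1511 and 794 CPM, and Pfkfb3, with 23.0 and 5.14 CPM, went the other way.

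A list of 31 other genes of the pathway (carriers, hexokinases, the remaining enzymes, lactate carriers, fructokinase and bisphosphoglycerate mutase) shows the surroundings of the 8. The symbol Aldoa has 2 gene identifiers in the annotation. Its values here are those of the lower identifier alone, and how the counting treated reads that match both is not known. With insulin in WT, 29 were tested, and 4 were higher and 2 lower by the DEG criteria, where 17.2% of all genes were DEGs, with a median of 0.09. Past the adjusted threshold were Slc2a9, which fell by 0.98 on the log2 scale (adjusted p = 0.0106), and Aldoa, which rose by 0.63 (adjusted p = 0.0292). The 4 higher, named after their values were seen, were Slc2a4, Ldhb, Aldoa and Khk, of which the first 3 were also higher in WT muscle than in WT liver. In the same comparison 1 of 2 muscle fibre markers tested was a higher DEG (median 2.88), as were the 1 slow fibre marker, 1 of 3 neutrophil and 1 of 2 adipocyte markers, and 1 of 4 endothelial and 1 of 4 fibroblast markers were lower ones. Without WT insulin replicate 3 there were 5 higher and 2 lower pathway genes, with Aldoa and Ldhb among the higher, where 18.3% of all genes were DEGs. Slc2a4 was not a DEG without that liver, nor without WT insulin replicate 2 or WT saline replicate 3, and with each liver left out in turn there were 4 to 7 DEGs, against 13.1 to 18.3% of all genes. What these markers contribute was not tested. In ERRα-/- livers 28 were tested, and 2 were higher and 2 lower, against 17.2% of all genes (4 to 6 DEGs with a liver left out, against 12.3 to 18.5% of all genes). There 1 of 5 hepatocyte markers was a higher and 1 a lower DEG, and 1 of 3 red cell markers tested was a higher one (median 0.48), while the hepatocyte sums of the saline livers were 106200, 77880, 111600 and 82440 CPM. The same pair passed, Slc2a9 with -0.67 (adjusted p = 0.0161) and Aldoa with 0.61 (adjusted p = 0.035).

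Several other enzymes of the pathway were lower in ERRα-/- livers by the DEG criteria. With saline 28 were tested, and of these reported genes 0 were higher and 6 were lower, against 11.3% of all genes, with a median of -0.19 beside 0.00 for all genes and 0 past the adjusted threshold by edgeR. The 6 were Eno1 (-0.52), Aldoa (-0.47), Pgam1 (-0.33), Pgk1 (-0.32), Gapdh (-0.30) and Gpi1 (-0.36). With insulin 29 were tested, 0 were higher and 11 were lower, against 9.99% of all genes, with a median of -0.37 beside -0.02 for all genes and 0 past the adjusted threshold by edgeR. The 8 with the smallest p were Eno1 (-0.70), Tigar (-0.82), Pgam1 (-0.59), Pgk1 (-0.62), Aldoa (-0.49), Slc2a3 (-2.07), Tpi1 (-0.43) and Khk (-0.53). With each liver left out in turn, a step added after seeing the data, the DEGs of the list numbered 5 to 7 with saline and 6 to 12 with insulin, and Aldoa, Pgk1, Pgam1 and Eno1 were among the lower ones each time. In these settings 9.31 to 14.4% of all genes were DEGs with saline and 5.78 to 13.2% with insulin. Markers of other cell types moved as well. With saline 2 of 4 Kupffer cell markers were lower DEGs (median -0.38), as were 1 of 3 red cell, 1 of 4 endothelial and 1 of 4 fibroblast markers tested. With insulin 2 of 4 muscle fibre markers tested were lower DEGs (median -2.73), a comparison that holds WT insulin replicate 3 with its fibre sum of 69.8 CPM, and without that liver 12 of 29 pathway genes were lower, where 10.8% of all genes were DEGs. In the same comparison 1 of 5 hepatocyte markers was a higher DEG, and the hepatocyte sum was 100500 to 107500 CPM in ERRα-/- livers and 80140 to 90080 CPM in WT livers, without overlap. The part of these markers in the pathway values was not tested. These comparisons between genotypes have no livers in common, and 0 of the 8 genes described in full were DEGs in the same direction in both, as Pfkfb3 was lower in the first and higher in the other. The difference between the insulin effects was a DEG for 2 of 30, Khk (0.71) and Slc16a1 (0.58), both above zero, against 8.79% of all genes. For the same difference 1 of 4 red cell markers was a DEG below zero (median -0.69).

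**Figure D4:**
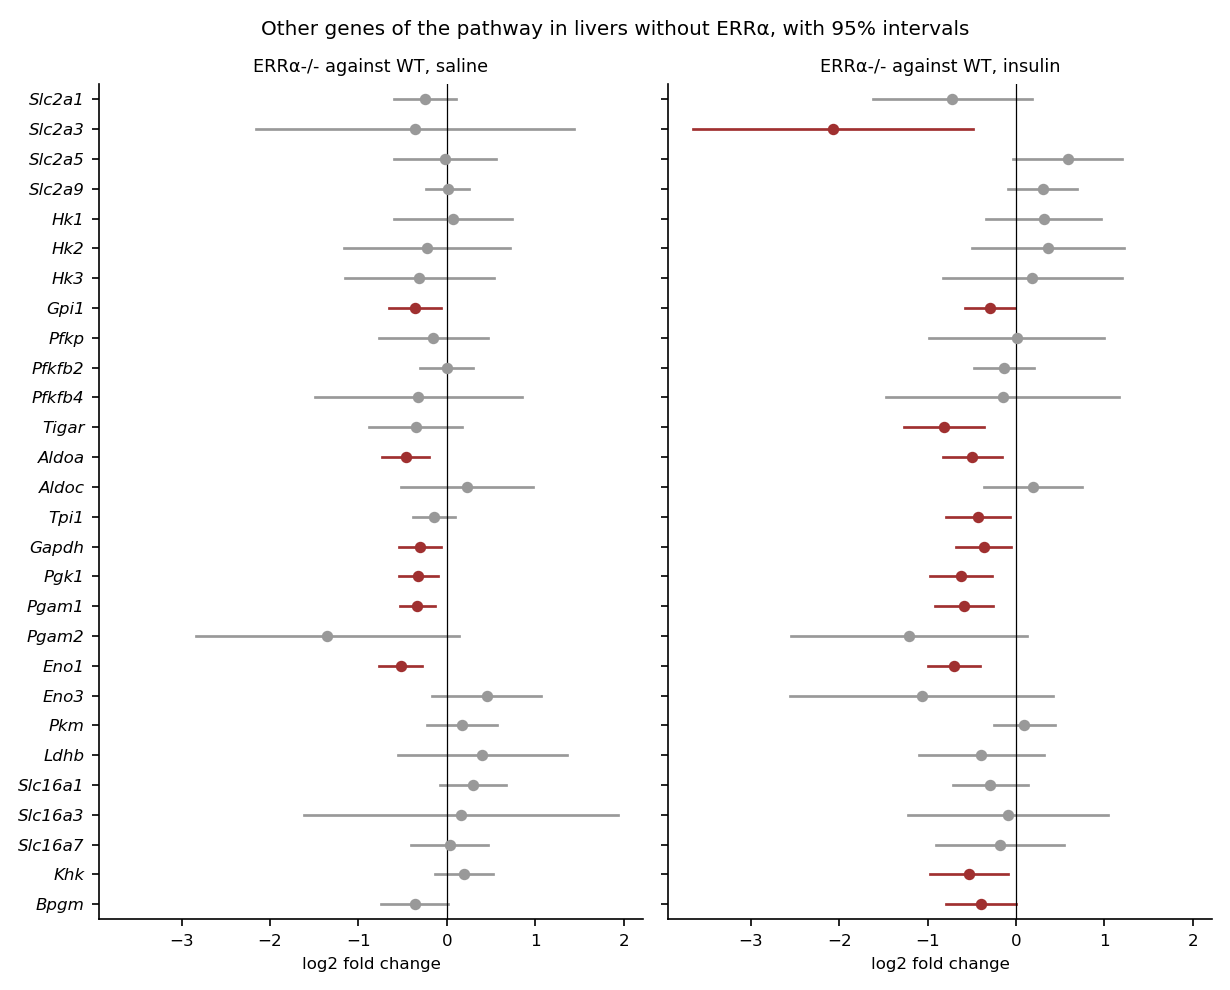
Log2 difference of ERRα-/- from WT for the 28 listed pathway genes tested in both the saline and the insulin comparison, with DEGs by edgeR in red. Eno1, Aldoa, Pgam1, Pgk1, Gapdh and Gpi1 are DEGs below zero in both, with Eno1 at -0.52 and -0.70.

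With ERRα3SA, 1 of 29 tested was a DEG in liver (Aldoc, -0.40), 2 of 29 in muscle (Slc16a7, 1.00, and Eno2, -0.998) and 1 of 30 in the difference between tissues (Hk1, 0.50), against 4.88%, 4.54% and 5.57% of all genes. Without ERRα3SA muscle replicate 1, DEGs over all genes were 2506 of 14363 in muscle and 2766 of 16019 in the difference. The list was not counted again for that setting. In the liver comparison 3 of 4 cholangiocyte markers were lower DEGs (median -1.02), while their sums overlapped (8.78 to 14.4 CPM against 9.82 to 14.5 CPM in WT) and Sox9, the fourth, was at 9.14 CPM on average against 7.07 CPM. The 1 lymphocyte marker tested was a lower DEG (-1.17) and 1 of 4 Kupffer cell markers a higher one. In the muscle comparison 1 of 4 slow fibre markers was a lower DEG, 1 of 3 red cell markers a higher one, and of 2 cholangiocyte markers tested 1 was lower and 1 higher. For the difference between tissues 1 of 4 Kupffer cell and 1 of 4 adipocyte markers were DEGs below zero. There 1 of 3 red cell markers was a DEG above zero. Between WT muscle and WT liver 30 were tested, 19 were higher and 9 lower in muscle by adjusted p, against 86.5% of all genes. The higher were Pgam2 (11.19), Eno3 (10.21), Slc2a4 (9.71), Hk2, Pkm (7.50), Aldoa (7.05), Slc16a3, Ldhb, Pfkfb4, Slc2a3, Tigar, Bpgm, Eno2, Gpi1, Tpi1, Gapdh, Pfkp, Hk1 and Pgk1. The lower were Slc2a5, Slc2a9, Khk, Aldoc, Slc16a7, Pgam1, Hk3, Eno1 and Slc16a1. A list of 12 factors that control the pathway was read the same way. Insulin made 3 higher and 2 lower in WT, against 17.2% of all genes, where Txnip rose by 0.97 (adjusted p = 0.0131) and Mlxipl, the gene of ChREBP, fell by 0.81 (adjusted p = 0.0319). In ERRα-/- it made 3 higher and 2 lower, again against 17.2%, where Txnip rose by 1.75 (adjusted p = 0.0237) and Arrdc4 by 0.83 (adjusted p = 0.0319).

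Between genotypes the control factors had 1 DEG of 12 with saline, Ppargc1a (0.95), against 11.3% of all genes, and 3 with insulin, Arrdc4 (0.99), Txnip (0.89) and Srebf1 (-1.12), against 9.99%. The difference between the insulin effects was a DEG for Arrdc4 (-0.82), 1 of 12, against 8.79% of all genes. With ERRα3SA the DEGs were Mlxipl (-0.27) and Foxa2 (-0.64) in liver, 2 of 12, and Srebf1 (-0.66) in muscle, 1 of 11, against 4.88% and 4.54% of all genes. None of these differences passed the adjusted threshold by edgeR. Between WT muscle and WT liver 10 of the 12 passed it, against 86.5% of all genes, Mlxip (3.95), Txnip (3.47), Ppargc1a (2.26), Esrrg (4.14) and Esrrb (3.37) higher in muscle, and Mlxipl (-1.97), Mlx (-1.86), Hif1a (-0.85), Srebf1 (-2.20) and Foxa2 lower.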

How the data were processed

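RNA-seq counts per gene were analysed as the authors deposited them: raw read counts from paired-end NEBNext Ultra libraries that they aligned to mm10 (GRCm38) with STAR and did not normalise. Samples were grouped by their labels, and replicate numbers are those of the labels. The members and the lists were chosen with earlier results of these data known. Quasi-likelihood tests of edgeR 4.0.16 (R 4.3.3) followed TMM normalisation and the filterByExpr filter on low counts, with each comparison fitted on its own groups and an interaction on its 4 groups. DEGs changed by 1.2-fold or more in either direction and had an unadjusted p under 0.05, limits that the study set on DESeq2 and that are applied here to edgeR, and adjusted p-values (Benjamini-Hochberg) cover all genes tested. Intervals of 95% use the test's own degrees of freedom. Log2 CPM used a prior count of 2, and lengths are unions of GENCODE vM21 exons.

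Varied were the test (DESeq2 1.42.0), the size factors, the filter, the groups in the fit, the replicate number as a block and each sample left out in turn. For family shares and pathway counts this last step was chosen after seeing the data. Pathway counts had it only in the comparisons of groups of the insulin experiment, not for the difference between insulin effects or the ERRα3SA experiment. The fits were also tested on simulated data, but no value from that step is given or relied on here. Named beside the 8 members are Esrra, genes of the pathway list and of the control factor list with an adjusted p under 0.05 (where none had, DEGs, at most the 8 with the smallest p per list and comparison), and for each member the 2 genes with the highest Pearson r over the livers of the insulin experiment, predicted and unnamed genes left out. Promoter sequences are from RefSeq (GRCm38.p6). Some genes are not reported and are left out of the counts and medians of their lists.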

Additional observations from a re-analysis of the deposited data

Results flagged for a closer look

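Of 50 pairs of a gene and a group of 4 samples, 6 had a sample whose gap to the nearest other sample was large beside the range of the group, where chance gives about 1 in 20. The like share over all genes is not given here, and pairs that share a library are not independent. The ratio of gap to range was 0.884 for Pfkm in WT livers with saline, where replicate 1 was low at 13.3 CPM. It was 0.853 for Pfkm in WT livers with insulin, where replicate 2 was low at 11.3 CPM. For Pfkfb3 in WT livers with insulin it was 0.84, with replicate 2 high at 18.0 CPM. Replicate 2 of that group also had the lowest mitochondrial share of the 4, 1.88% against 3.88 to 4.17%.

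In ERRα3SA muscle the ratio was 0.856 for Pfkl, with replicate 1 low at 5.62 CPM. In ERRα3SA liver it was 0.946 for Pfkfb3 and 0.857 for Ldha, both with replicate 4 high, at 12.6 and 1143 CPM. These are the muscle with 19.3% mitochondrial counts and the liver with a hepatocyte marker sum of 63020 CPM, and the part of either in these values was not tested.

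The response to insulin differed between WT and ERRα-/- livers for 2 of the 8 genes by the DEG criteria, against 8.79% of 14670 genes. The difference was -1.93 on the log2 scale for Pfkfb3 and 0.71 for Ldha. Neither passed the adjusted threshold, against 0% of all genes, and both depended on single livers. For Pfkfb3 it was -1.03 without ERRα-/- insulin replicate 2 (unadjusted p = 0.0572). For Ldha it was 0.48 without ERRα-/- saline replicate 4 (unadjusted p = 0.0558) and 0.55 without WT insulin replicate 1 (unadjusted p = 0.0555).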

How the results depend on the processing

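Of 329 values of the 8 genes under other settings, 317 had the same direction and side of the DEG criteria, 7 no longer met them, 5 met them newly and 0 changed sign past them. Of 138 extreme values with 1 sample left out, the counts were 122, 8, 8 and 0. These are the lowest and highest log2 difference of each gene and comparison, whether or not it was a DEG in the full set. Calls that moved without other samples are outside this tally, such as Pklr with insulin in ERRα-/- livers. The tally is therefore no measure of how stable the DEG calls were, and many of them rested on single livers. For insulin in WT livers, adjusted calls rose from 1 to 2 with DESeq2 and 2 with the replicate number as a block, both times with Pfkfb3 (0 to 1 with a sample left out), and DEGs ran from 2 to 4 with a sample left out and were 3 with 4 groups in the fit, without Pklr. Over all genes the adjusted calls went from 425 to 936 with DESeq2 and 407 with the block, of 13463, and ran from 105 to 409 with a sample left out. All-gene DEGs ran from 1796 to 2511 with a sample left out and were 2826 of 14670 with 4 groups in the fit. For insulin in ERRα-/- livers, adjusted calls went from 0 to 3 with DESeq2, 1 without the filter and 1 with the block (0 to 2 with a sample left out), with 4 to 6 DEGs (from 5 to 4 with DESeq2, without Pklr, with the block, without Pfkl, and with 4 groups in the fit, without Pfkfb1, and 6 without the filter, with Pfkfb3). Over all genes the adjusted calls went from 398 to 988 with DESeq2 and 514 with the block, of 13684, and to 640 of 19807 without the filter. They ran from 42 to 608 with a sample left out. All-gene DEGs were 2455 with DESeq2, 2415 with the block, 2033 of 14670 with 4 groups in the fit and 2709 without the filter, and ran from 1729 to 2480 with a sample left out. For ERRα-/- against WT with saline, DEGs went from 2 to 1 with the block and to 3 with DESeq2 and without the filter, both with Ldha, were 2 with 4 groups in the fit, Ldha in place of Pfkfb3, and ran from 1 to 3 with a sample left out. With insulin they went from 2 to 1 with DESeq2, without Pfkfb3, and ran from 0 to 3. All-gene DEGs between genotypes with saline were 1487 with the block and 1641 with DESeq2, of 13481, 1962 of 20141 without the filter and 1461 of 14670 with 4 groups in the fit. They ran from 1284 to 1984 with a sample left out. With insulin all-gene DEGs were 1490 of 13665 with DESeq2 and ran from 818 to 1778 with a sample left out. DEGs of the pathway list ran from 5 to 7 with saline and from 6 to 12 with insulin between genotypes, and for insulin from 4 to 7 in WT and from 4 to 6 in ERRα-/- (added after seeing the data). The shares of all genes in these settings were 9.31 to 14.4%, 5.78 to 13.2%, 13.1 to 18.3% and 12.3 to 18.5%, in the same order. For the difference between the insulin effects DEGs ran from 1 to 3, and for the ERRα3SA effect between tissues they went from 0 to 1 with DESeq2 and ran from 0 to 1. All-gene DEGs ran from 886 to 1569 with a sample left out for the insulin effects. For the ERRα3SA effect between tissues they were 988 of 15688 with DESeq2 and ran from 710 to 2766 with a sample left out. The causes were not tested. Deviations of same-numbered samples from their group means correlated across genes at -0.219 to 0.332. Differently numbered samples were not compared in this way, so whether the numbers mark pairs is not settled. Lists of adjusted calls change with 3 or 4 samples a group, and counts of 0 to 4 in muscle allow no fold for Slc2a2, Gckr or Pklr between ERRα3SA and WT.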

Other observations

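Levels here are of RNA in whole tissue and say nothing of protein, of enzyme activity or of glucose flux. With 3 or 4 samples a group, the 95% intervals of the log2 differences of Pfkfb3 and Pklr with insulin in ERRα-/- livers are wide, -0.05 to 1.87 and -1.98 to -0.15. Whether a liver and a muscle of 1 number came from 1 mouse is not given, and the test between tissues treats them as separate. The strand setting of the counting is not stated, which bears on Pklr, Pfkfb1 and Pfkm through the exons they share with other genes.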
